A study of Drosophila melanogaster with 6 samples.

Results

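The genes described here are 10 genes of Drosophila melanogaster that serve protein folding in the endoplasmic reticulum (ER) and the unfolded protein response: Hsc70-3, Gp93, Calr, Cnx99A, Cnx14D, Xbp1, crc, Ire1, PEK and Atf6. They were chosen by symbol, through the FlyBase identifiers of the deposited gene table and the dm6 annotation. The rule used none of their values, but earlier results of these data were known when the genes were chosen. All 10 were among the 17558 genes of the table. All flies were adult males, injected with the Gram-positive bacterium Micrococcus luteus and taken for RNA-seq 12 h later, with 3 libraries per group and no uninjected group. Control flies had the strain Gal80ts; Tub-Gal4/P{CaryP}attP40, and flies overexpressing CR33942, a long noncoding RNA also called NANPI, had the strain Gal80ts; Tub> NANPI. As the strain names read, both groups carried the temperature-sensitive Gal4 repressor and a tubulin-promoter driver, which acts in nearly all cells. Strain and overexpression differ together and cannot be told apart. Neither the number of flies in a library nor the independence of the libraries is given in the labels, and the p-values rest on a spread between libraries that may be technical.

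Proteins that enter the secretory route fold in the ER with the help of an ER Hsp70 (BiP), an ER Hsp90 and the lectin chaperones calreticulin and calnexin, which hold glycoproteins. When unfolded protein builds up, the sensors IRE1, PERK and ATF6 start the unfolded protein response, which slows translation and raises chaperone genes. In flies the response runs through splicing of Xbp1 mRNA by Ire1 and through preferred translation of the ATF4 homologue encoded by crc after PEK phosphorylates eIF2alpha. Gene-level values do not show splicing of Xbp1 or translation of crc. Among the secretory tissues of the fly is the fat body, which releases immune peptides into the blood.

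Levels are given in FPKM, fragments per kilobase of gene length, scaled to library depth. The values went back to whole reads, between 17029398 and 19793483 per library. Each of the 10 genes gave whole reads in every library at its annotated exon length. RNA of CR33942, listed as lncRNA:CR33942, stood at 18.7, 19.5 and 19.0 FPKM in the control libraries and at 553, 589 and 563 FPKM in the overexpressing libraries. Gene-level values do not separate RNA of the native gene from RNA of the transgene. Group changes were tested with limma on log2(FPKM + 1), and a gene was called when its Benjamini-Hochberg adjusted p over all 12326 tested genes was under 0.05.

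Of the 10 genes, 1 was called, Cnx14D, which was higher in the overexpressing flies. None was called lower by limma, and voom on recovered reads called 1 lower, Hsc70-3. By limma, 5 of the 10 had an unadjusted p under 0.05. These were Hsc70-3, Gp93, Calr and crc, which were lower, and Cnx14D, which was higher. Over all tested genes, 1931, or 15.7%, had an unadjusted p under 0.05. The limma test called 2.22% of all tested genes, 0.844% higher and 1.38% lower, and voom called 2.47% of genes lower. The luminal chaperones Hsc70-3, Gp93 and Calr lay at 0.835 to 0.892 times their control means in the overexpressing flies without passing the limma threshold. Libraries of the groups did not overlap for 4 genes that were lower (Hsc70-3, Gp93, Calr and crc) and for 1 that was higher (Cnx14D). Over all tested genes, 11.7% had non-overlapping groups with the overexpressing libraries lower and 9.06% with them higher. In bulk RNA, fewer cells of a type and less RNA per cell cannot be told apart.

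**Figure D1:**
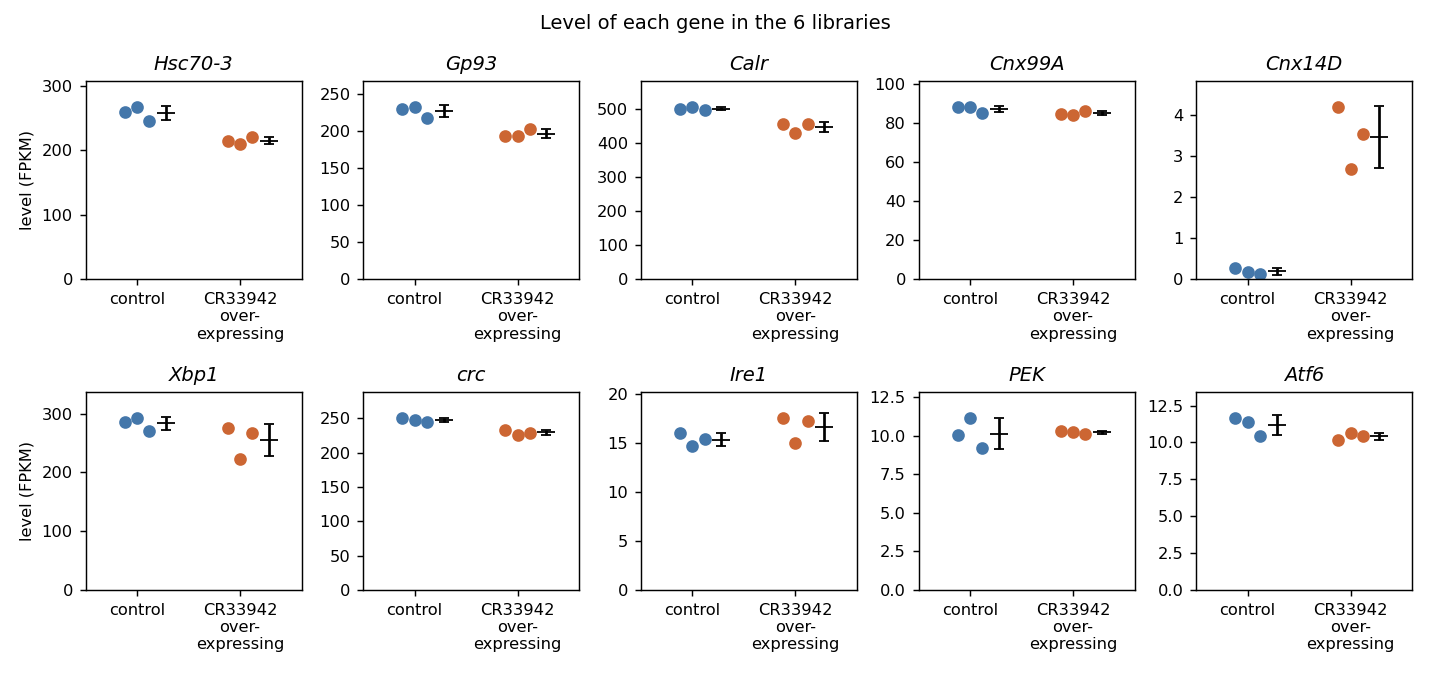
FPKM (y axis, from 0) of the 10 genes in each control library (blue) and each overexpressing library (orange), with the mean and SD of the 3 libraries beside them. The groups are separate for Hsc70-3, Gp93, Calr and crc, where the overexpressing libraries are lower, and for Cnx14D, where they are higher.

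Hsc70-3 encodes the fly BiP, the Hsp70 of the ER lumen, which binds unfolded chains. The gene (FBgn0001218) lies on the X at 11801696 to 11807117 on the minus strand in dm6, with 5 annotated transcripts and 3589 nt of exon. Its level was 259, 267 and 246 FPKM in control replicates 1 to 3 and 215, 209 and 220 FPKM in overexpressing replicates 1 to 3. Every overexpressing library lay below every control library. The means were 257 ± 10.9 and 215 ± 5.33 FPKM (SD, n = 3 each), a ratio of 0.835. The log2 change was -0.26 ± 0.05 (SE, 95% interval -0.38 to -0.14), with no call by limma (adjusted p = 0.0559). Voom, which called 460 of all tested genes where limma called 274, called Hsc70-3 (adjusted p = 0.0236). The limma adjusted p was 0.0739 with TPM scaling, 0.115 with no variance trend and 0.196 with the replicate number as a block. Without 1 library, the limma adjusted p lay between 0.0769 and 0.192 and the log2 change between -0.29 and -0.23.

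Gp93 encodes the ER Hsp90, the homologue of mammalian GRP94, which folds a restricted set of secreted and surface proteins. It lies on 3R at 27948711 to 27952151 (FBgn0039562). Its level was 230, 233 and 218 FPKM in the control libraries and 193, 194 and 203 FPKM in the overexpressing libraries, again with no overlap. The ratio of means was 0.867, and the log2 change was -0.21 ± 0.05 (SE; 95% interval -0.33 to -0.09; limma, adjusted p = 0.109). Its last bases overlap CG4951 on the opposite strand, a gene at 7.34 ± 0.349 and 7.13 ± 0.182 FPKM in control and overexpressing flies (SD, n = 3 each).

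Calr encodes calreticulin, the soluble lectin chaperone and calcium store of the lumen, and had the highest level of the 10 genes. It lies on 3R at 9628691 to 9630851 (FBgn0005585). The control libraries stood at 499, 505 and 495 FPKM and the overexpressing libraries at 454, 429 and 454 FPKM. The lowest value belonged to overexpressing replicate 2, and the groups did not overlap. The ratio of means was 0.892, and the log2 change was -0.17 ± 0.05 (SE; 95% interval -0.28 to -0.05; limma, adjusted p = 0.163). The summed level of Hsc70-3, Gp93 and Calr was 984 ± 23.7 FPKM in control flies and 857 ± 22.7 FPKM in overexpressing flies (SD, n = 3 each). These 3 genes had between 10329 and 18353 reads per library.

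Cnx99A encodes the main calnexin, the membrane-bound counterpart of calreticulin, known in the fly eye for its part in rhodopsin maturation. It lies on 3R at 29315254 to 29319644 (FBgn0015622). Its level was 88.1, 87.8 and 85.2 FPKM in the control libraries and 84.4, 84.2 and 86.2 FPKM in the overexpressing libraries, and the groups overlapped. The log2 change was -0.04 ± 0.05 (SE; 95% interval -0.14 to 0.07; limma, adjusted p = 0.780).

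Ratios within a library do not depend on how libraries were scaled. They were formed after the values had been seen. Hsc70-3 stood at 2.94, 3.04 and 2.88 times Cnx99A in the control libraries and at 2.55, 2.49 and 2.55 times in the overexpressing libraries. Gp93 per Cnx99A was 2.61 ± 0.0464 and 2.32 ± 0.0395, and Calr per Cnx99A 5.74 ± 0.0701 and 5.25 ± 0.141, in control and overexpressing flies (SD, n = 3 each). For all 3 pairs the overexpressing libraries lay below the control libraries without overlap. Of 5 ratios tested, 4 had an exact two-sided permutation p of 0.1 (0.125 adjusted over the 5), the smallest that 3 against 3 libraries allow. The 4 included Hsc70-3 per Gp93, at 1.13 ± 0.0122 and 1.09 ± 0.0196. Hsc70-3 per Xbp1, at 0.908 ± 0.00247 and 0.847 ± 0.0809, overlapped (exact permutation p = 0.4).

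**Figure D2:**
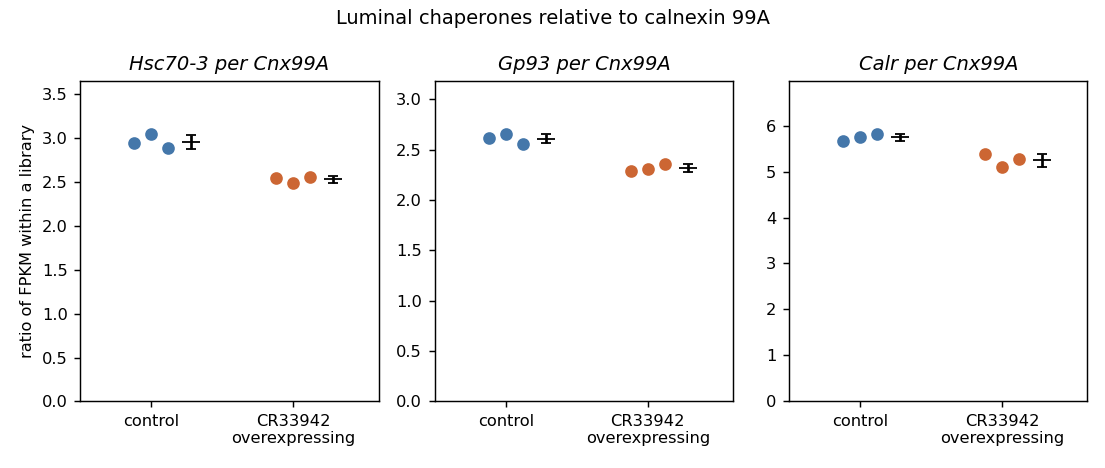
Ratio of FPKM within each library (y axis, from 0) of Hsc70-3, Gp93 and Calr to Cnx99A, with control libraries in blue, overexpressing libraries in orange, and the mean and SD of 3 libraries beside them. In each panel all 3 overexpressing libraries lie below the 3 control libraries; for Hsc70-3 the means are 2.96 and 2.53.

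Cnx14D, the second calnexin gene, was the member called. The libraries held 0.276, 0.171 and 0.117 FPKM in control replicates 1 to 3 and 4.19, 2.69 and 3.52 FPKM in overexpressing replicates 1 to 3. All overexpressing libraries were far above all control libraries. In reads these were 13, 8 and 5 against 208, 132 and 154, a scaled ratio of 18.2 (exact 95% binomial interval 12.3 to 28.2, counting error only). The log2 change on the log2(FPKM + 1) scale, which understates the change of so low a gene, was 1.90 ± 0.15 (SE; limma, adjusted p = 0.00162). The gene passed the filter on low values through the overexpressing libraries alone, so that it could only enter the test as a gene that differed. Leaving out any overexpressing library took it below the filter. With the set of tested genes held fixed it was called in all 6 fits without 1 library (limma, adjusted p between 0.00138 and 0.0135). That set was filtered on all 6 libraries, so these fits keep the same selection. With no filter on low values, which kept every gene above 0 in any library, Cnx14D was also called (limma, adjusted p = 0.00336). Cnx14D made up 0.214% ± 0.0895 of the calnexin FPKM in control flies and 3.91% ± 0.816 in overexpressing flies (SD, n = 3 each), so Cnx99A supplied nearly all calnexin RNA in both.

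Cnx14D (FBgn0264077) lies on the X at 16522967 to 16525415 on the minus strand. It is annotated as a single exon of 2449 nt inside an intron of para, the gene of the voltage-gated sodium channel, on the same strand. No para exon overlaps it. The nearest para exons lie 814 bases away at lower coordinates and 1862 bases away at higher coordinates. The identifier that the annotation gives para is not among those analysed here, so reads of unspliced para RNA could not be set beside those of Cnx14D. The other genes annotated within 20 kb, CG9903 and CG9902, were not called. CG9903 stood at 5.46 ± 0.580 and 5.93 ± 0.117 FPKM and CG9902 at 1.27 ± 0.132 and 1.55 ± 0.178 FPKM in control and overexpressing flies (SD, n = 3 each; limma, adjusted p = 0.624 and 0.560). Around the other 9 genes, too, limma called none of the tested genes within 20 kb; the lowest adjusted p among them was 0.161, beside crc.

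Xbp1 encodes the transcription factor made after Ire1 splices its mRNA, and was the second most abundant of the 10 genes. It lies on 2R at 21143545 to 21145750 (FBgn0021872). Its level was 286, 293 and 271 FPKM in the control libraries and 275, 223 and 267 FPKM in the overexpressing libraries. Overexpressing replicate 2 stood below the other libraries, and the groups overlapped. The log2 change was -0.16 ± 0.08 (SE; 95% interval -0.35 to 0.04; limma, adjusted p = 0.435), and it was -0.06 without that library.

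The ATF4 homologue gene crc (FBgn0000370, on 2L at 21310866 to 21319527) held 251, 247 and 245 FPKM in the control libraries and 233, 226 and 229 FPKM in the overexpressing libraries. The spread within a group was small, and the groups did not overlap. The ratio of means was 0.926, and the log2 change was -0.11 ± 0.05 (SE; 95% interval -0.22 to -0.01; limma, adjusted p = 0.295). CG46314, annotated on the same strand within crc, was not analysed here.

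The genes of the sensors stood below those of Cnx99A and the luminal chaperones in level, and limma and voom called none of the 3 (unadjusted p over 0.05 in each). Ire1, the kinase and nuclease that splices Xbp1, stood at 16.0, 14.6 and 15.4 FPKM in control and at 17.6, 15.0 and 17.2 FPKM in overexpressing libraries, with overlap (log2 change 0.11 ± 0.07 SE, 95% interval -0.07 to 0.28; limma, adjusted p = 0.570). Ire1 (FBgn0261984, 3R at 19853908 to 19861291) overlaps MICU3 on the opposite strand, which stood at 14.4 ± 0.389 and 15.7 ± 0.335 FPKM; the labels do not say if reads were counted by strand. PEK, the fly PERK (FBgn0037327, 3R at 5458563 to 5464753), stood at 10.05, 11.2 and 9.22 FPKM in control and at 10.3, 10.2 and 10.1 FPKM in overexpressing libraries. The overexpressing values fell inside the control range (log2 change 0.01 ± 0.08 SE, 95% interval -0.17 to 0.19; limma, adjusted p = 0.962). Atf6, a transcription factor held in the ER membrane until it is cleaved (FBgn0033010, 2R at 5144733 to 5154756), stood at 11.7, 11.4 and 10.4 FPKM in control and at 10.2, 10.6 and 10.4 FPKM in overexpressing libraries. Its groups overlapped (log2 change -0.09 ± 0.06 SE, 95% interval -0.24 to 0.06; limma, adjusted p = 0.559). The 3 sensor genes had between 747 and 1440 reads per library.

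**Figure D3:**
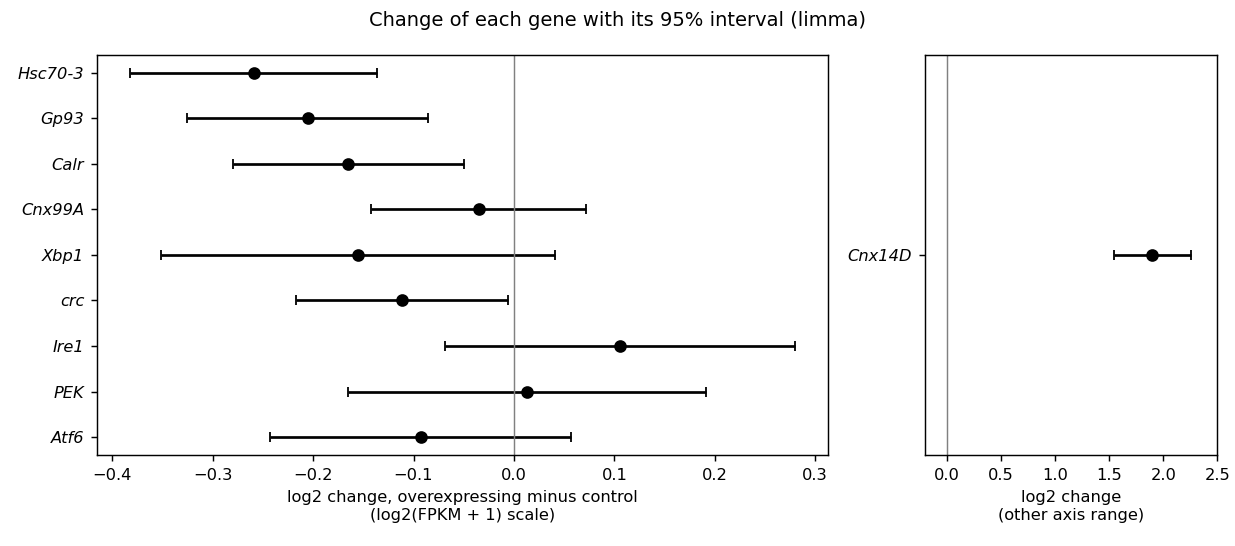
Log2 change, overexpressing minus control, on the log2(FPKM + 1) scale (x axis) with the 95% interval from limma for each gene (y axis); Cnx14D is drawn at right on an axis of its own range. The intervals of Hsc70-3, Gp93, Calr and crc lie below 0 before adjustment, those of Cnx99A, Xbp1, Ire1, PEK and Atf6 span 0, and Cnx14D stands at 1.90.

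FPKM is per length, so levels may be ordered between genes. In control flies the order was Calr (500 ± 5.18 FPKM), Xbp1 (283 ± 11.3), Hsc70-3 (257 ± 10.9), crc (248 ± 2.94), Gp93 (227 ± 7.93), Cnx99A (87.0 ± 1.602), Ire1 (15.4 ± 0.668), Atf6 (11.2 ± 0.650), PEK (10.2 ± 0.991) and Cnx14D (0.188 ± 0.0810; SD, n = 3 each). Hsc70-3 and crc, and Atf6 and PEK, overlapped between libraries, and the other neighbours in the order did not. In overexpressing flies Hsc70-3 (215 ± 5.33 FPKM) stood below crc (229 ± 3.67 FPKM) without overlap, while Xbp1 (255 ± 27.9 FPKM) overlapped crc. The order of the other genes was the same. Calr ranked 219th in level among the tested genes in control flies, Hsc70-3 ranked 391st and Ire1 5079th.

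Other genes of ER protein folding and quality control were read from 6 lists. Of 77 tested, limma called 3 higher and 2 lower, where of all tested genes it called 0.844% higher and 1.38% lower. The median log2 change was -0.08 and 61 of the 77, or 79.2%, lay below 0, where over all tested genes the median was 0.002 and 49.3% lay below 0. With values rescaled to TPM, the medians were -0.06 for the 77 and 0.02 for all tested genes, with 56 of the 77 below 0. In 25 of the 77, or 32.5%, all overexpressing libraries lay below all control libraries, against 11.7% of all tested genes. In 3 of the 77 they all lay above, against 9.06% of all tested genes. These genes share the same 6 libraries and are no replicates of a change.

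Enzymes and cochaperones of folding had 14 tested genes. Calls numbered 0 by limma and 0 by voom, and 4 of the 14 had an unadjusted p under 0.05, where 15.7% of all tested genes did. The median was -0.10, 13 of 14 lay below 0 and 7 were lower without overlap, as were 11.7% of all tested genes. ERp60, a protein disulfide isomerase gene, stood at 290 ± 5.74 and 262 ± 3.21 FPKM, and BI-1, a Bax inhibitor family gene of the ER membrane, at 183 ± 0.863 and 190 ± 6.81 FPKM (SD, n = 3 each; limma, adjusted p = 0.188 and 0.692). The gene Pdi, whose identifier in the annotation used here is not in the table, was not analysed.

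Genes that carry proteins into the ER, the translocon, its partners, the signal peptidase and the signal recognition particle, had 21 tested members. Of these, 19 lay below 0, 11 were lower without overlap and 9 had an unadjusted p under 0.05, with a median of -0.12. Of all tested genes, 11.7% were lower without overlap and 15.7% had an unadjusted p under 0.05. Limma called 1, l(1)G0320, the gene of the alpha subunit of the translocon-associated protein complex. It fell from 148, 144 and 138 FPKM to 112, 116 and 121 FPKM, a ratio of 0.813 (log2 change -0.30 ± 0.05 SE; limma, adjusted p = 0.0378). This call was lost without any 1 library, at adjusted p between 0.0502 and 0.150. N-glycosylation had 12 tested genes, 11 of them below 0 and 5 at an unadjusted p under 0.05, with a median of -0.12. The 1 gene called by limma went the other way. GCS2alpha, which encodes the catalytic subunit of glucosidase II, the enzyme that trims glucose from glycans before and after calnexin binding, rose from 82.2, 81.5 and 79.1 FPKM to 102, 99.6 and 98.3 FPKM (ratio 1.24, log2 change 0.30 ± 0.05 SE; limma, adjusted p = 0.0220). GCS2alpha was called without overexpressing replicate 2 (adjusted p = 0.0261) and not called in the fits that left out another library (limma, adjusted p up to 0.0990).

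ER-associated degradation, which returns misfolded proteins to the cytosol, had 12 tested genes with a median of -0.03 (-0.008 with TPM scaling). Of these, 9 lay below 0, 1 was lower without overlap and 1 had an unadjusted p under 0.05 by limma. Of all tested genes, 11.7% were lower without overlap, 15.7% had an unadjusted p under 0.05 and limma called 1.38% lower. Limma called 1, Ubc7, a ubiquitin-conjugating enzyme gene, which fell from 47.8, 51.2 and 50.2 FPKM to 38.5, 40.2 and 41.2 FPKM (ratio 0.804, log2 change -0.31 ± 0.05 SE; limma, adjusted p = 0.0337). Without 1 library the call of Ubc7 held only without overexpressing replicate 2 (adjusted p = 0.0418) and was otherwise lost (up to 0.126, limma); with TPM scaling its adjusted p was 0.0517. Der-1 and TER94 were not analysed here. Partners in unfolded protein signalling had 8 tested genes and 0 calls by limma or voom. Of these, 6 lay below 0, 1 was lower without overlap and 1 had an unadjusted p under 0.05 by limma. The 2 most abundant, SREBP and eIF2alpha, stood at 81.8 ± 5.77 and 71.1 ± 4.41 FPKM and at 72.9 ± 3.97 and 67.6 ± 1.24 FPKM (SD, n = 3 each). Their adjusted p by limma were 0.234 and 0.419.

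Targets of ATF4 and of general stress lay on the other side of 0, with a median of 0.17 over 10 tested genes and 7 above 0. Limma called 2, both higher, where of all tested genes it called 0.844% higher. Thor encodes the translation inhibitor 4E-BP, a target of crc and also of Foxo in flies. It rose from 303, 345 and 300 FPKM to 642, 433 and 605 FPKM (ratio 1.77, log2 change 0.80 ± 0.14 SE; limma, adjusted p = 0.0369). Gadd45, a stress-response gene, rose from 23.6, 23.6 and 23.3 FPKM to 44.1, 30.5 and 40.5 FPKM (ratio 1.63, log2 change 0.67 ± 0.12 SE; limma, adjusted p = 0.0392). In both, overexpressing replicate 2 was the lowest of its group and still above every control library. Without it the adjusted p were 0.00183 and 0.00166 by limma. Both calls were lost when any of the other libraries was left out (limma, adjusted p up to 0.129 for Thor and 0.141 for Gadd45).

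**Figure D4:**
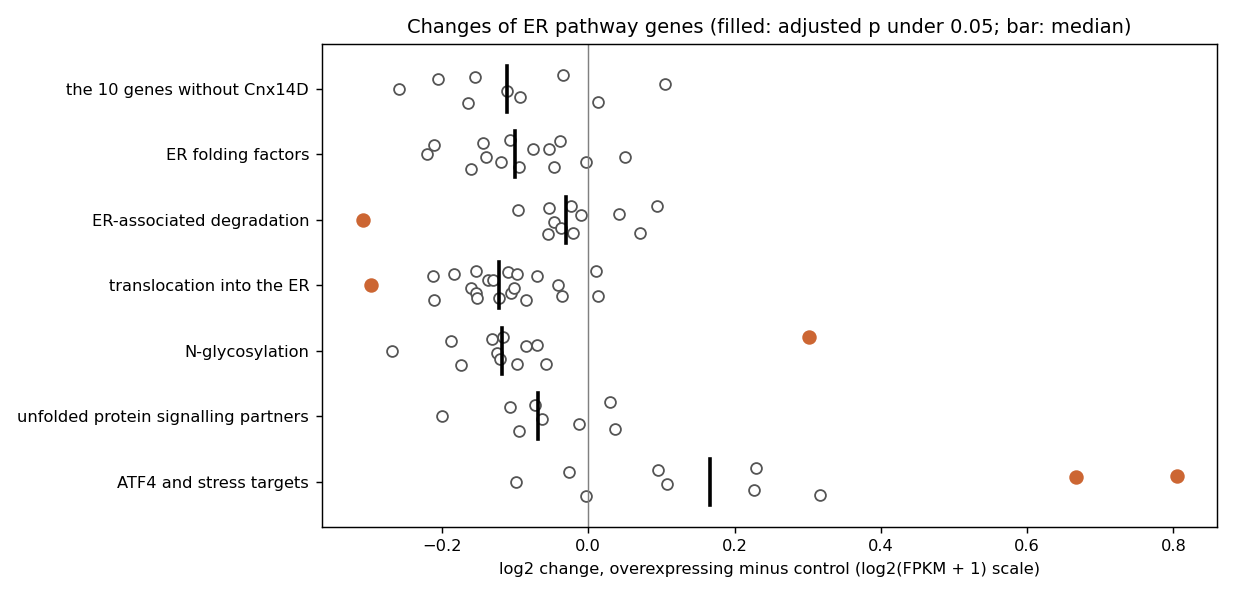
Log2 change of each tested gene (points) on the log2(FPKM + 1) scale (x axis) by list (y axis), with calls filled and the median of each list as a bar; Cnx14D is left out of the top row. Medians lie at -0.10 for folding, -0.03 for degradation, -0.12 for translocation and N-glycosylation, and 0.17 for ATF4 and stress targets.

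Calls were also counted by chromosome, which was not among the planned results. Of 17 tested X-linked genes among the 10 and the lists, 4 were called (Cnx14D, l(1)G0320, GCS2alpha and Ubc7), or 23.5%, and of 70 autosomal genes 2, or 2.86%. Without Cnx14D, which entered the test through the group where it is high, 3 of 16 X-linked genes were called, or 18.8%. Each of these 3 calls was lost in at least 5 of the 6 fits without 1 library. All 3 were also lost with no variance trend (limma, adjusted p between 0.0554 and 0.0809) and with the replicate block (limma, between 0.109 and 0.152). Over all tested genes the shares were 4.88% on the X and 1.77% on the autosomes. Genes that entered the test as Cnx14D did, such as Muc4B, were not taken out of these shares. Hsc70-3 is X-linked too, whereas Gp93, Calr and crc, whose groups also did not overlap, are autosomal.

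Tissue markers were set beside these values. The 7 tested fat body markers all lay below 0, with a median of -0.31, 3 of them lower without overlap. Of all tested genes, 49.3% lay below 0 and 11.7% were lower without overlap. Summed over 9 markers the fat body level was 368 to 433 FPKM in control libraries and 271 to 344 FPKM in overexpressing libraries, and the groups did not overlap. Limma called 0 of the 7 (4 at an unadjusted p under 0.05, 2 called lower by voom). Without overexpressing replicate 2 it called 4 lower, of 6 then tested. Leaving out that library also raised the calls over all tested genes, from 274 to 431. Lsp2 and fit were under the filter. The part of the fat body in the lower chaperone values was not tested. Summed testis markers ran from 6247 to 6842 FPKM in control and from 6361 to 6982 FPKM in overexpressing libraries, and accessory gland markers from 2227 to 2664 and from 2283 to 2562 FPKM. Limma called 0 of the 26 tested testis markers (0 at an unadjusted p under 0.05) and 0 of 8 accessory gland markers (1 at an unadjusted p under 0.05), and voom called 0 of either; Acp95EF was listed at 0 in every library. Midgut, muscle and neuron sums overlapped between groups, at 7350 to 8754 and 8050 to 8632 FPKM for midgut, 1493 to 1896 and 1748 to 1819 for muscle, and 77.9 to 82.8 and 80.9 to 86.8 for neurons. Of the 8 midgut markers 4 lay above 0 and 4 below, and limma called 0. Among them 2, betaTry and PGRP-SC1a, were higher without overlap at an unadjusted p under 0.05. They are named here after their values were seen, and 9.06% of all tested genes were higher without overlap. PGRP-SC1a had 12 to 31 reads per library and was not called by voom (adjusted p = 0.355). The trypsin gene betaTry stood at 774 ± 132 and 1158 ± 248 FPKM in control and overexpressing flies (SD, n = 3 each; limma, adjusted p = 0.148), a ratio of 1.50, and voom called it higher (adjusted p = 0.0429). Of 6 muscle and 5 neuron markers limma and voom called 0, with 0 at an unadjusted p under 0.05. Haemocyte markers summed to 48.3 to 49.9 and 42.1 to 52.6 FPKM. Of these limma called NimC1, which encodes a receptor of phagocytic blood cells and was lower at 3.16 ± 0.180 FPKM against 4.93 ± 0.198 in control flies (SD, n = 3 each; adjusted p = 0.0207). That call was lost without any 1 library but overexpressing replicate 2.

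The tested genes whose values moved most like those of Hsc70-3 over the 6 libraries, by root mean square distance of mean-centred log2(FPKM + 1), were PH4alphaEFB (0.00770), CG6028 (0.0183), alpha-Est5 (0.0228), CG9649 (0.0248) and CG2915 (0.0281). PH4alphaEFB encodes a prolyl 4-hydroxylase subunit, an enzyme of the ER lumen, and stood at means of 34.8 and 29.0 FPKM in control and overexpressing flies. For Cnx14D the closest were Muc4B (0.146), CecA2 (0.161), CG45491 (0.226), CG6788 (0.238) and CG33666 (0.242), all on the X except CecA2, on 3R. Muc4B went from a mean of 0.0350 to 2.27 FPKM and CG45491 from 0.0884 to 2.75 FPKM. CG6788 went from 0.0908 to 3.78 FPKM, CG33666 from 0.315 to 4.32 FPKM and CecA2 from 93.3 to 330 FPKM. The X-linked ones among them, like Cnx14D, passed the filter on low values through the overexpressing libraries alone. Their shared place on the X was not tested. Closeness over 6 libraries in 2 groups says only that the values ran alike.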

How the data were processed

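Per the labels' protocols, poly-T-selected mRNA of adult male flies was fragmented and sequenced as paired ends. Alignment used HISAT2 2.0.5 and gene counting used featureCounts 1.5.0-p3. The submitters' processing notes name dm6 as the build. The deposited table holds 1 FPKM value per gene and library. How the authors went from counts to FPKM, and whether strand was used, is not stated in the labels.

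Of 17558 identifiers, 17252 were paired with a symbol in the Ensembl annotation of dm6. FPKM times exon length and 1 factor per library gave whole reads (tolerance 0.01) for 15276 of 15918 genes above 0, or 96.0%; for 641 more a length was solved (tolerance 0.001) and 1 was not recovered. Median-of-ratios size factors matched the library factors to within 0.281%, and totals to within 2.03%.

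Genes with at least 1 FPKM in at least 3 of 6 libraries entered a two-sided limma test of log2(FPKM + 1) (limma 3.58.1, R 4.3.3, variance trend on). P-values were adjusted by Benjamini-Hochberg over these genes, and the test was tried on simulated data first. Alternatives were pseudocounts of 0.1 and 0.5, other filters and scalings, no trend, voom on recovered reads, the replicate number as a block, and each library left out, also with the tested genes held fixed, which was added after seeing the data. The members and lists were chosen with earlier results of these data known. Named beside the members were called genes of each list, up to 4, or the 2 most abundant; called marker genes; genes within 20 kb of a called member; and the 5 closest profiles. ERp44, Grp170, ProtA, ProtB and Stt3B were matched through RefSeq synonyms. No sequences are shown because none was in the files used here.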

Additional observations from a re-analysis of the deposited data

How the results depend on the processing

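Over 21 alternatives the 10 genes gave 207 log2 changes, of which 204 kept direction and side of the threshold. Cnx14D gave only 18 of these, because fits where it fell under the filter were not counted. For genes that were not called, keeping their side says little, since fits without 1 library have fewer values to make a call from. Hsc70-3 became a call with voom on recovered reads, so that 1 of the 10 was called lower, and PEK turned to -0.0479 without control replicate 3, with the tested genes refiltered or held fixed (range without 1 library -0.0479 to 0.0795). The number of the 10 called higher ranged from 0 to 1 without 1 library, because Cnx14D fell under the filter without any overexpressing library. Pathway genes called higher numbered 1 with no filter on low values and 0 with no variance trend, and 0 to 4 without 1 library; those called lower numbered 1 with TPM scaling, 0 with no variance trend and 0 to 1 without 1 library. All tested genes called numbered 460 with voom and 70 to 431 without 1 library. The causes were not tested. With the replicate block, 110 genes were called, 0 pathway genes higher and 0 lower, and Cnx14D was still called (adjusted p = 0.00946, limma). The replicate numbers did not pair the libraries: deviations from the group means correlated at -0.185 to 0.0327 within a number and up to 0.170 between numbers. Depth limits the control level of Cnx14D, which rests on 5 to 13 reads per library.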
